A study of Mus musculus with 6 samples.

Results

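Ligands of the TGF-β superfamily, among them GDF11, act through paired kinase receptors and Smad proteins, and many other proteins on the cell surface or outside the cell decide how much ligand reaches those receptors. The 10 genes described here encode such ligand modulators. *Fst* and *Fstl3* encode follistatin and a follistatin-like protein that wrap around activins, myostatin and GDF11 and keep them from their receptors, and *Fstl1* encodes a secreted relative with a follistatin-like domain. *Nog* and *Chrd* encode noggin and chordin, which bind BMPs. *Tmeff1* and *Tmeff2* encode membrane proteins that carry follistatin-like domains outside the cell. *Eng* (endoglin) and *Tgfbr3* (betaglycan) encode co-receptors without a kinase, and *Bambi* encodes a receptor-like protein that lacks the kinase and blunts signalling.

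The members were chosen by name, with earlier results of these arrays known. The large differences of *Tmeff1* and *Eng* had been seen, so all values below describe these samples and are no independent support. Within a gene, the rule took the probe set with the highest mean over all 6 arrays. Each of the 10 genes had 1 probe set with a symbol of its own, so this step chose nothing. They are 10 of the 19938 genes with such a probe set. Their mean log2 values over the 6 arrays lay between 5.17 for *Tmeff2* and 8.33 for *Eng*.

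Bone marrow-derived macrophages (BMMs) were grown from the tibiae of 9-week-old mice, the age in the labels, where the study's methods give a range that ends at it and female C57BL animals. All cultures received 100 ng/ml M-CSF, which sustains macrophages, and 50 ng/ml RANKL, which starts osteoclast formation, for 24 h. The vehicle group (3 samples) had nothing more, and the rGDF11 group (3 samples) also had 100 ng/ml recombinant GDF11. There was no group without RANKL. RNA was measured on 1 Affymetrix Mouse Gene 1.0 ST array per sample, and values are log2 units after robust multichip averaging (RMA). A difference of 1 log2 unit is a doubling of the array signal. Samples are titled biological replicates, but the sources used here do not say whether each came from its own mouse, and the p-values cover only sample-to-sample spread, which may be technical.

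Macrophage genes were bright on all 6 arrays. All 10 macrophage markers, among them *Csf1r* and *Lyz2*, lay above the median row, with mean log2 values of 8.18 to 13.04. Of these, 6 fell and 0 rose by limma's moderated test at an adjusted p under 0.05, and 0 were higher at an unadjusted p under 0.05. Among the 10, *Fcgr1* (log2 fold change -1.41) and *Cd14* (-1.06) fell most, while *Csf1r* (-0.08) and *Lyz2* (-0.02) did not pass. Of 10 osteoclast markers, 6 rose and 1 fell, *Mmp9* (-0.62). Over all probe sets tested, 7.31% were higher and 8.64% lower at this adjusted p. Some neutrophil markers also moved, with 2 of 8 higher, *Ngp* (log2 fold change 1.0) and *S100a8* (0.71), and 0 lower. The other 6 did not pass, among them *S100a9* (0.19, limma, adjusted p = 0.439). For *Elane* (0.26, limma, adjusted p = 0.065) and *Camp* (0.25, adjusted p = 0.112), every rGDF11 array was higher than every vehicle array. At an unadjusted p under 0.05 in limma's test, 4 of the 8 were higher and 0 lower. *Ly6g* (-0.22, adjusted p = 0.411) and *Mpo* (-0.10, adjusted p = 0.498) had negative values. The summed signal of all 8 was 765 to 866 on the vehicle arrays and 1131 to 1322 on the rGDF11 arrays. *Ngp* was the brightest of them (mean log2 value 8.78), and 5 of the 8 lay above the median row. None of the 6 measured lymphocyte markers did. The part of neutrophils in the changes of the members was not tested. The array medians were 6.11 to 6.18. These are bulk samples, so fewer cells of a type and less RNA per cell cannot be told apart.

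With rGDF11, 2 of the 10 ligand modulators rose, *Tmeff1* and *Fstl1*, and 1 fell, *Eng*. The other 7 did not pass the test. Over all 23410 probe sets tested, 7.31% were higher and 8.64% lower at the same threshold, an adjusted p under 0.05 (limma, Benjamini-Hochberg over the whole table). At the threshold of the study's methods, a change of at least 1.5-fold with p under 0.01 before adjustment, the same 2 genes were higher and the same 1 lower, where 2.06% of all probe sets were higher and 2.96% lower. The groups did not overlap for 3 genes that were higher (*Tmeff1*, *Fstl1* and *Fst*) and 1 that was lower (*Eng*), beside 16.4% and 16.5% of all probe sets. For these 4 genes the exact permutation test gave a two-sided p of 0.1, the smallest that 3 arrays against 3 allow. The median log2 fold change of the 10 members was 0.12, against 0.02 over all probe sets. The contrast was known when the members were picked, so nothing is read from these shares.

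**Figure D1:**
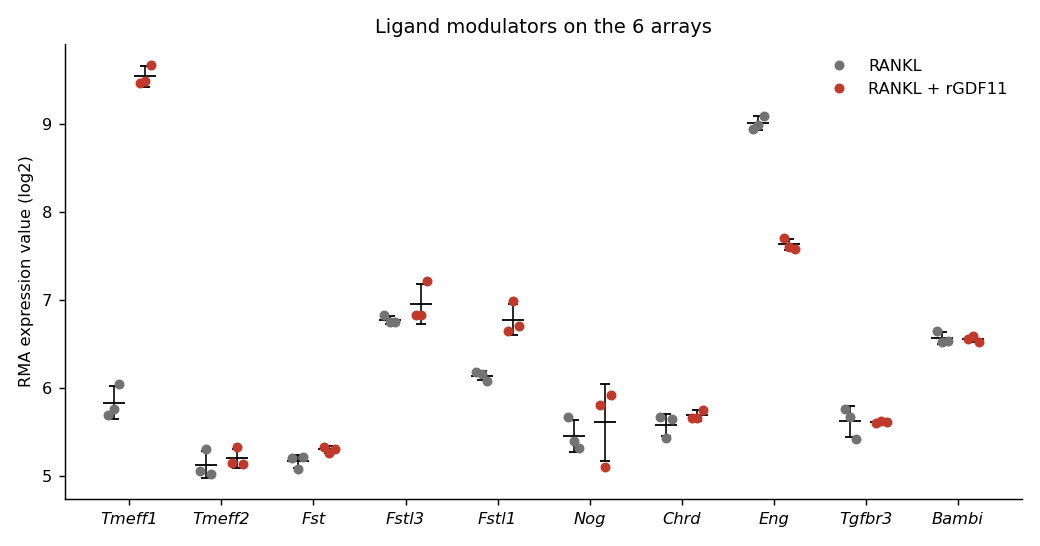
RMA expression values (log2, vertical axis) of the 10 ligand modulators in BMMs given RANKL (grey) or RANKL and rGDF11 (red). Each point is 1 array, and the bars mark mean and SD over the 3 arrays of a group. *Tmeff1* lies between 5.70 and 6.05 without rGDF11 and between 9.47 and 9.68 with it, while *Eng* moves down and most other members overlap between the groups.

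The sequence before the annotated start is shown for the 3 members that passed the test, since they moved in different directions. The bases come from RefSeq, build GRCm38.p6, and the promoter table used here held 6 of the 10 members. Motifs were searched in the 250 bases before each start site. All of them are printed, on the + strand, for *Fstl1* and *Eng*, and the first 147 for *Tmeff1*, which end before the annotated gene and hold both of its matches. Capitals mark motifs found on either strand: the Smad box core CAGAC, the GC-rich Smad motif GGCGCC, the Smad palindrome GTCTAGAC, which shares the letters AGAC with the core, and the AP-1 motif TGANTCA. A match is a run of letters and was not shown to be a bound site.

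Tmeff1 (chr4:48584924-48585070): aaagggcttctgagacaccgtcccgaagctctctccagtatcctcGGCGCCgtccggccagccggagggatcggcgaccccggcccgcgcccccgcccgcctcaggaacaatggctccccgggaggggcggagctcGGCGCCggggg
Fstl1 (chr16:37776805-37777054): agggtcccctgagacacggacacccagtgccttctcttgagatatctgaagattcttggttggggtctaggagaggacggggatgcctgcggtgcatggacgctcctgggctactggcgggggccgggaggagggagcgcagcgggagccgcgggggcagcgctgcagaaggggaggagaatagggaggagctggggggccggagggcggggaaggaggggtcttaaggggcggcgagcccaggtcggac
Eng (chr2:32646345-32646594): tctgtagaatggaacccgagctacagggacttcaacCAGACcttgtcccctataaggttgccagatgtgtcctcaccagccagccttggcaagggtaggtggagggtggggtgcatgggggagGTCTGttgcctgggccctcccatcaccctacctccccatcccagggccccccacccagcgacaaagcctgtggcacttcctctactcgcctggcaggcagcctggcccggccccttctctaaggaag

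The window of *Tmeff1* held 2 matches to GGCGCC and that of *Eng* held 2 to CAGAC, 1 on each strand. The window of *Fstl1* held 0 matches to the 4 motifs. Of 32851 windows of 250 bases before a start site, 9.59% held GGCGCC, 42.2% CAGAC, 6.75% TGANTCA and 0.167% GTCTAGAC. Among members that did not pass the test, *Chrd* held 1 match to GGCGCC, *Fstl3* held 2 to CAGAC and *Tmeff2* held 0 to any of the 4.

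*Tmeff1* changed most among the members. Its log2 values were 5.70, 5.77 and 6.05 in the vehicle replicates and 9.47, 9.49 and 9.68 in the rGDF11 replicates. All 3 arrays with rGDF11 lay at least 3.42 log2 units above every array without it, against a widest spread of 0.35 within a group. The means were 5.84 ± 0.18 and 9.55 ± 0.12 (SD, n = 3 arrays per group), a 13.0-fold rise with a 95% confidence interval of 11.0 to 15.5 (limma, adjusted p = 2.98e-06). Ordered by log2 fold change, this probe set was number 2 of the 23410 tested. The signal of *Tmeff1* without rGDF11 was below the array median, and the table holds no detection calls.

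*Tmeff2*, the relative of *Tmeff1* with the same kind of domains, read 5.06, 5.31 and 5.03 in the vehicle group and 5.15, 5.33 and 5.14 with rGDF11. The second replicate was the highest in each group, and the groups overlapped. The log2 fold change was 0.08, with a 95% interval of -0.14 to 0.30 (limma, adjusted p = 0.670). The upper end of this interval is 1.23-fold, against a lower end of 11.0-fold for *Tmeff1*. The difference between both changes was not itself tested. The signal of *Tmeff2* lay below the array median, so its interval does not bound the change of the RNA.

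The secreted traps of activin and GDF11 did not pass the test. *Fst* read 5.21, 5.08 and 5.22 without rGDF11 and 5.34, 5.27 and 5.31 with it. Every rGDF11 array was higher than every vehicle array, but by only 0.05 log2 units, and the log2 fold change of 0.14 (95% interval -0.02 to 0.29) fell short in limma's test (adjusted p = 0.233). *Fstl3* read 6.83, 6.75 and 6.76 in the vehicle group and 6.83, 6.83 and 7.22 with rGDF11. The third rGDF11 replicate stood apart from the other two, which lay at the level of the highest vehicle array. The log2 fold change of *Fstl3* was 0.18 (95% interval -0.08 to 0.43, limma, adjusted p = 0.367), and 0.05 without that replicate. The 95% intervals of the signal reach 1.22-fold for *Fst* and 1.35-fold for *Fstl3*. The signal of *Fst* lay below the array median, so its interval does not bound the change of the RNA.

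*Fstl1*, whose product circulates and is made mainly by mesenchymal cells, rose. Its log2 values were 6.19, 6.16 and 6.09 in the vehicle group and 6.65, 6.99 and 6.71 with rGDF11. The groups were separated by 0.46, and the second rGDF11 replicate was the highest. The means were 6.15 ± 0.05 and 6.78 ± 0.18 (SD, n = 3 arrays per group), a 1.55-fold rise with a 95% interval of 1.33 to 1.81 (limma, adjusted p = 0.00338). The vehicle values lay near the array medians of 6.11 to 6.18, so this interval of the signal does not bound the change of the RNA. Without the second rGDF11 replicate the log2 fold change was 0.53, below the fold change of 1.5, and the adjusted p was 0.00417.

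Some markers of stromal cells and osteoblasts also rose. Of 11 measured, 4 rose, 7 did not pass and 0 fell by limma's test (also 0 lower at an unadjusted p under 0.05), namely *Col1a2* (log2 fold change 0.65), *Col1a1* (0.63), *Pdgfrb* (0.48) and *Alpl* (0.44). The summed signal of all 11 on the linear scale was 590 to 671 on the vehicle arrays and 794 to 891 on the rGDF11 arrays. Of the 11, 4 lay above the median row. The highest sum was on the third rGDF11 replicate and the highest *Fstl1* value on the second. Among the 7, *Dcn* (log2 fold change -0.26, limma, adjusted p = 0.240) and *Pdgfra* (-0.15, adjusted p = 0.508) had negative values. The other 5, *Cxcl12* among them (0.21, limma, adjusted p = 0.179), had positive ones. Among the 7, the groups did not overlap for *Dcn*, which was lower, and for *Cxcl12*, which was higher. The part of such cells in the value of *Fstl1* was not tested.

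Neither BMP antagonist passed the test. *Nog* read 5.67, 5.40 and 5.32 without rGDF11 and 5.81, 5.11 and 5.92 with it. The rGDF11 arrays lay on both sides of the vehicle arrays, and 99.4% of all probe sets had a smaller spread within groups. Its log2 fold change was 0.15, with the widest 95% interval of the members, -0.33 to 0.62 (limma, adjusted p = 0.716). *Chrd* read 5.67, 5.44 and 5.65 in the vehicle group and 5.66, 5.66 and 5.76 with rGDF11, and only the second vehicle replicate lay clearly below the rest. Its log2 fold change was 0.11 (95% interval -0.08 to 0.29, limma, adjusted p = 0.467). The signals of *Nog* and *Chrd* lay below the array median, so these intervals do not bound the change of the RNA.

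*Eng* was the member that fell. It read 8.95, 8.99 and 9.10 in the vehicle replicates and 7.71, 7.61 and 7.59 in the rGDF11 replicates. The groups were 1.24 apart, against a widest spread of 0.15 within a group. The means were 9.01 ± 0.08 and 7.64 ± 0.06 (SD, n = 3 arrays per group), a 2.59-fold fall (log2 fold change -1.37, 95% interval -1.54 to -1.21, limma, adjusted p = 2.26e-05). Ordered from the most negative change, *Eng* was number 124 of 23410 probe sets.

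Endoglin is known from endothelial cells and is also made by macrophages. Of 10 endothelial markers, *Kdr* (log2 fold change -0.50) and *Vwf* (-0.34) fell, *Pecam1* (0.28) rose and 7 did not pass, while *Cdh5* (-0.08, limma, adjusted p = 0.550) and *Tie1* (-0.05, adjusted p = 0.776) were among the latter. Only *Vwf* lay above the median row. The summed signal of all 10 was 510 to 565 on the vehicle arrays and 474 to 504 on the rGDF11 arrays. The summed macrophage markers were also lower, at 34359 to 34441 and 28596 to 29839. The summed signal of 4 megakaryocyte markers was 1076 to 1176 and 630 to 731. Of these 4, *Pf4* (-1.10), the brightest with a mean log2 value of 8.94, and *Ppbp* (-0.34) were lower. None was higher, at an unadjusted p under 0.05 as well. *Itga2b* (-0.10, limma, adjusted p = 0.506) and *Gp9* (-0.10, adjusted p = 0.372) did not pass. The part of any of these cells in the fall of *Eng* was not tested.

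The other co-receptor and the pseudoreceptor passed in neither direction. *Tgfbr3* read 5.77, 5.68 and 5.43 without rGDF11 and 5.61, 5.63 and 5.62 with it, so that the rGDF11 arrays lay inside the vehicle range. Its log2 fold change was -0.0071, with a 95% interval of -0.22 to 0.21 (limma, adjusted p = 0.974). The signal of *Tgfbr3* lay below the array median, so this interval does not bound the change of the RNA. *Bambi*, a known target of TGF-β and BMP signalling in other cells, read 6.65, 6.53 and 6.54 in the vehicle group and 6.56, 6.60 and 6.53 with rGDF11. The arrays of both groups were mixed, and the log2 fold change was -0.0086 with a 95% interval of -0.16 to 0.14 (limma, adjusted p = 0.956). The differences between these changes and that of *Eng* were not tested.

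**Figure D2:**
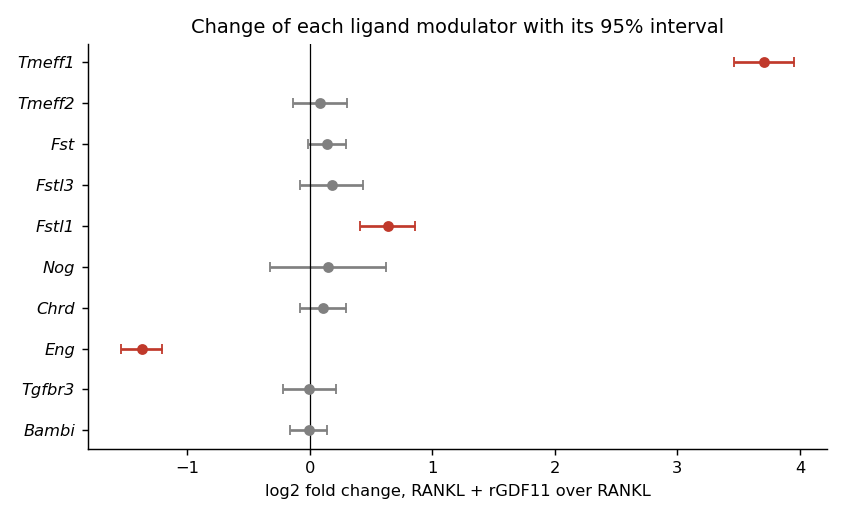
Change on the log2 scale with rGDF11 (horizontal axis, RANKL + rGDF11 minus RANKL) of the 10 ligand modulators, with 95% confidence intervals from limma, 3 arrays per group. Red marks genes with an adjusted p under 0.05. *Tmeff1* (3.71) and *Fstl1* (0.64) lie to the right, *Eng* (-1.37) to the left, and the other 7 intervals include 0.

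Spread within groups differed among the members. The pooled SD was 0.05 for *Bambi*, 0.06 for *Fst*, 0.07 for *Eng* and 0.15 for *Tmeff1*, against a median of 0.11 over all probe sets, and reached 0.34 for *Nog*. The half-width of the 95% interval was therefore 0.15 log2 units for *Bambi* and *Fst* and 0.48 for *Nog*. Of the 7 members that did not pass, 5 (*Tmeff2*, *Fst*, *Nog*, *Chrd* and *Tgfbr3*) also had means below the array median in both groups.

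The genes whose 6 values, centred on their mean, lay closest to those of *Tmeff1* were *Ch25h* and *Nt5e*, each with a root mean square difference of 0.31 log2 units, and *Tmem119* with 0.40. All 3 rose with rGDF11, by 3.20, 3.13 and 3.22 on the log2 scale. For *Eng* the closest were *Herc6* (0.03), *Parp12* (0.04) and *Gask1b* (0.05), all of them lower with rGDF11. *Herc6* read 8.62, 8.71 and 8.74 without rGDF11 and 7.46, 7.32 and 7.27 with it. With 2 groups of 3 arrays this measure mostly follows the size of the group difference.

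The genes next to each member on the chromosome, which the choice of members did not use, were looked up after the values had been seen. Of 20 neighbouring protein-coding genes, 1 on each side, 17 had a probe set of their own. Of these, 5 rose and 0 fell by limma's test (1 was lower at an unadjusted p under 0.05), beside 7.31% and 8.64% over the table. Both neighbours of *Tmeff1* were among the 5. *Msantd3*, the gene before it, read 6.71, 6.77 and 6.61 in the vehicle group and 8.19, 8.21 and 8.21 with rGDF11, a 2.84-fold rise (limma, adjusted p = 1.26e-05). *Cavin4*, the gene after it, which encodes a caveola-associated protein of muscle, read 4.90, 4.94 and 4.83 and then 5.89, 6.01 and 6.07, a 2.14-fold rise (limma, adjusted p = 5.54e-05). For both genes the groups were far apart. The signal of *Cavin4* lay below the array median in both groups, and there are no detection calls.

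Genes further from *Tmeff1* had smaller differences in signal. One place further out, *Tex10* rose by 0.52 on the log2 scale (limma, adjusted p = 0.00131) and *Plppr1* had a difference of 0.02 (95% interval -0.16 to 0.20). A further place out, *Invs* had -0.03 and *Acnat2* 0.07 (95% interval -0.47 to 0.61). The signals of *Plppr1* (mean log2 value 5.09) and *Acnat2* (2.94) lay below the array median, so their values do not bound the change of the RNA. Whether transcripts run on between these genes cannot be read from 1 value per probe set and was not tested. The genes on either side of *Eng* went the other way: *Ak1* had a log2 fold change of 0.47 and *Fpgs*, whose annotated end overlaps that of *Eng*, of 0.29, and both rose. Further out, *St6galnac4* rose (0.94), while *St6galnac6* (-0.24, 95% interval -0.47 to -0.01, limma, adjusted p = 0.170), whose groups did not overlap, and *Cdk9* (0.09, 95% interval -0.05 to 0.22) did not pass.

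**Figure D3:**
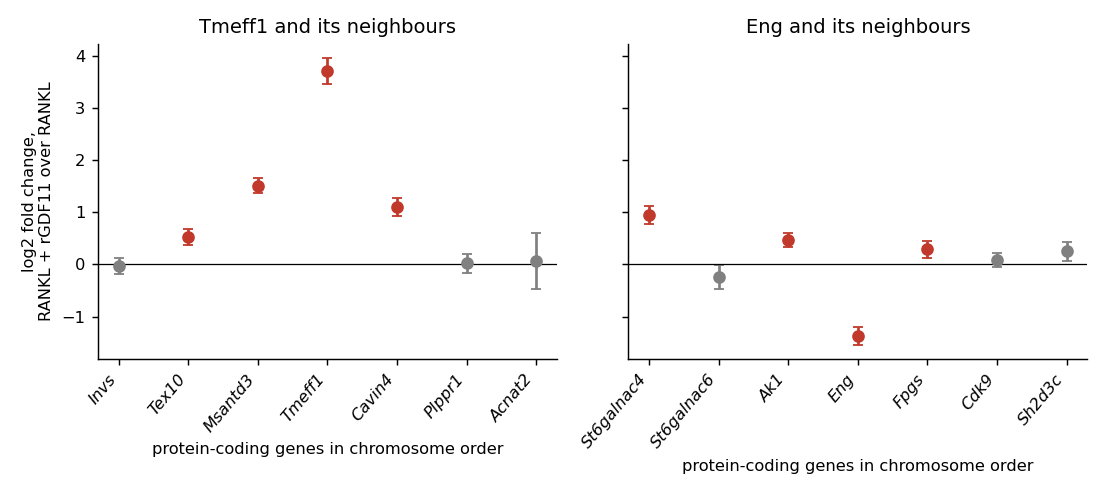
Change on the log2 scale with rGDF11 (vertical axis, RANKL + rGDF11 minus RANKL) and 95% confidence intervals of *Tmeff1* (left) and *Eng* (right) and 3 protein-coding neighbours on either side, in chromosome order and not to distance, from 3 arrays per group. Red marks an adjusted p under 0.05. *Msantd3* (1.51) and *Cavin4* (1.10) rise beside *Tmeff1* (3.71), while *Ak1* (0.47) and *Fpgs* (0.29) rise beside a falling *Eng* (-1.37).

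The wider pathway was followed through 7 lists of related genes that hold none of the 10 members. Of 86 measured genes, 21 rose, 7 fell and 58 did not pass, which is 24.4% and 8.14% beside 7.31% and 8.64% over the table. Their median log2 fold change was 0.10. These lists were also written with earlier results of these arrays known, so nothing is read from these shares.

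Of 16 secreted ligand traps outside the members, 1 rose, the BMP antagonist *Grem1* (log2 fold change 0.42, limma, adjusted p = 0.00844), and 0 fell (also 0 at an unadjusted p under 0.05, where 5 were higher). This is 6.25% higher, near the 7.31% of all probe sets, and the count was 2 under 5 of the alternatives. Of 16 membrane proteins that present, share or block ligands, 3 rose, 2 fell and 11 did not pass. *Cd109*, which encodes a co-receptor that restrains TGF-β signalling, read 7.83, 8.09 and 7.83 without rGDF11 and 9.48, 9.55 and 9.45 with it, a 2.99-fold rise, and *Nrp2* rose by 0.36 on the log2 scale. *Nrp1* fell 2.14-fold, with log2 means of 10.50 ± 0.06 and 9.40 ± 0.14 (SD, n = 3 arrays per group), and *Nrros*, whose product holds latent TGF-β on macrophages, fell by 0.57 on the log2 scale.

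Among matrix proteins that hold ligands, 3 of 11 rose and 0 fell by limma's test (0 lower at an unadjusted p under 0.05). They were *Bgn* (log2 fold change 1.02), *Thbs1*, which encodes an activator of latent TGF-β (0.73), and *Ltbp1*, which encodes a binding protein of latent TGF-β (0.59). Of 10 proteases, some of which cut ligand propeptides or chordin, 5 rose and 0 fell (0 lower at an unadjusted p under 0.05). *Htra3* (1.62), *Mmp14*, which sheds betaglycan and endoglin (1.57), *Plau* (1.42) and *Furin*, which encodes the convertase of many propeptides (1.03), rose most. Of 9 further genes with follistatin-like domains, *Sparc* (0.97), *Igfbp7* (0.41) and *Smoc2* (0.30) rose and *Agrn* (-0.39) fell. The call of *Agrn* held without rGDF11 replicate 3 and was lost without any 1 of the other 5 arrays, and that of *Smoc2* held without vehicle replicate 1 and was lost without any 1 of the other 5.

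Most ligands on which the members act did not pass. Of 13, 3 rose, 1 fell and 9 did not pass. *Inhba*, which encodes the activin A subunit bound by follistatin, rose (log2 fold change 1.58), as did *Tgfb2* (0.60) and *Bmp6* (0.31), and *Bmp2*, a ligand of noggin and chordin, fell (-1.17). The call of *Bmp6* was lost without vehicle replicate 1 or 2 or rGDF11 replicate 1 or 3. The endogenous *Gdf11* RNA, distinct from the protein that was added, had a log2 fold change of 0.08 (95% interval -0.18 to 0.34, limma, adjusted p = 0.704). *Mstn* (-0.05), *Inhbb* (0.03) and *Tgfb1* (-0.20, limma, adjusted p = 0.0714) did not pass. The means of *Gdf11*, *Mstn* and *Inhbb* lay below the array median in both groups, so their values do not bound the change of the RNA. Those of *Tgfb2*, *Bmp6* and *Bmp2* also lay below it. Of 11 signalling receptors, 3 rose and 3 fell. *Tgfbr1* had the largest change (1.36), *Acvrl1*, a partner of endoglin, fell (-0.66), *Bmpr1a* (-0.53) and *Acvr1b* (-0.50) also fell, and *Bmpr2* rose (0.52). Neither type II receptor of activin passed limma's test, *Acvr2b* at 0.04 (adjusted p = 0.744) and *Acvr2a* at -0.23 (adjusted p = 0.194).

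**Figure D4:**
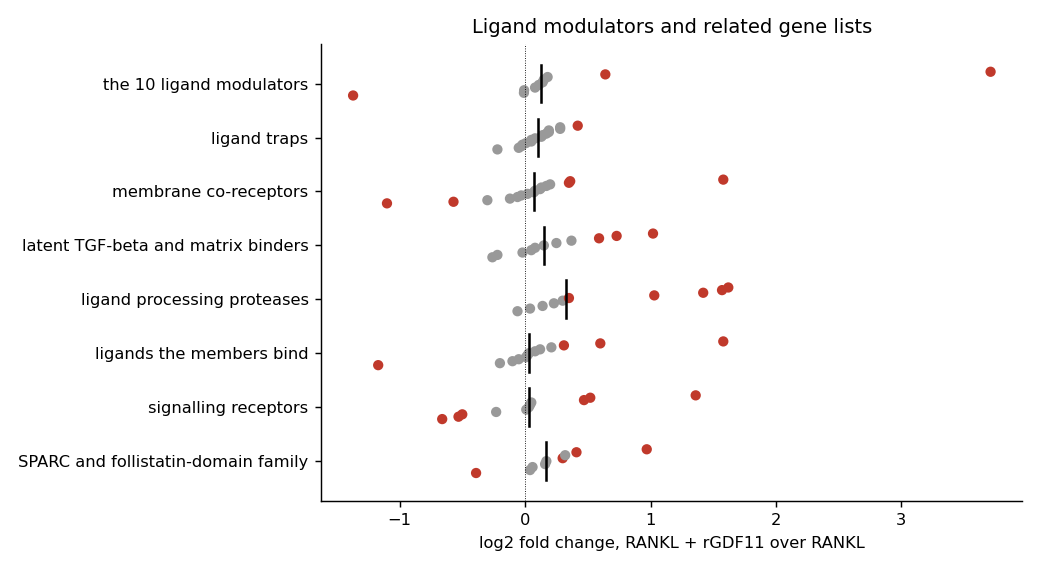
Change on the log2 scale with rGDF11 (horizontal axis, RANKL + rGDF11 minus RANKL) of the 10 ligand modulators and of 7 lists of related genes, 1 point per gene, from 3 arrays per group. A black bar marks each median, and red stands for an adjusted p under 0.05. Of the genes drawn, *Tmeff1* (3.71) lies furthest right and *Eng* (-1.37) furthest left, and in the proteases 5 of 10 points are red on the right.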

How the data were processed

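The arrays were normalized together by the authors with RMA, which corrects background, equalises the distributions and gives 1 deposited log2 value per probe set. The software was Affymetrix Expression Console and Transcriptome Analysis Console, version 3.0 in the submitters' processing notes and in the paper. No source used here names the annotation release. Of 35556 rows, 21789 were paired with 1 gene symbol by the platform annotation and 1621 with several, and these 23410 were tested. The test was limma's (version 3.58.1, R 4.3.3, lmFit and eBayes, two-sided) with Benjamini-Hochberg adjustment over all tested rows. The fit was tested on simulated arrays. The number of arrays limits the precision.

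The members, the gene lists and the tests were chosen with earlier results of these data known. All members are named, with up to 4 genes per related list by size of change among those passing, the ligands *Gdf11*, *Mstn*, *Inhba*, *Inhbb* and *Tgfb1*, the receptors *Acvr1b*, *Acvr2a* and *Acvr2b*, and the 3 genes closest in pattern to *Tmeff1* and to *Eng*. Neighbouring genes and individual marker genes were picked after their values were seen. Listed genes that share or lack a probe set were not analysed here. Summed marker signals are sums of values taken out of the log2 scale. Gene order and sequences come from RefSeq tables of GRCm38.p6. Alternatives covered the rows tested, filters, 2 normalizations, the variance trend, the methods' t-test, the replicate block, a stricter threshold and each array left out.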

Additional observations from a re-analysis of the deposited data

How the results depend on the processing

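The calls of *Tmeff1*, *Fstl1* and *Eng* held in direction and significance under all 14 alternatives fitted for each, with log2 fold changes of 3.64 to 3.81, 0.53 to 0.70 and -1.41 to -1.33 and adjusted p up to 0.00259, 0.0397 and 0.00334, the highest values being those of the methods' t-test. The other 7 members passed under none. With an array left out, *Bambi* ranged from -0.03 to 0.03, *Nog* from -0.0059 to 0.40 and *Tgfbr3* from -0.11 to 0.07, and their signs turned: *Bambi* was 0.03 without vehicle replicate 1 and 0.01 without rGDF11 replicate 3, *Nog* -0.0059 without rGDF11 replicate 3, and *Tgfbr3* 0.07 without vehicle replicate 1 and 0.02 without vehicle replicate 2. At the methods' threshold 1 to 2 members were higher with an array left out, 1 of them without rGDF11 replicate 2. Among the related lists, ligand traps had 2 higher in place of 1 with rows above the median only, a second quantile normalization, cyclic loess, the limma trend and the methods' t-test. The ligands had 1 higher in place of 3 with rows above the median only, where fewer genes are tested, and 2 lower in place of 1 with the trend. The call of *Bmp6* was lost in 7 of 13 alternatives and that of *Smoc2* in 8 of 13, the replicate block among them. Of the 3 membrane co-receptors called higher, *Cd109* and *Nrp2* kept the call in all 14 alternatives, and the third lost it in 6 of 13. *Agrn*, the 1 gene with a follistatin-like domain called lower, was lost (0) with all rows tested and with the methods' t-test, and the count was 0 to 1 with an array left out. Replicate numbers were not taken to pair the samples, since the sample titles name no pairing. Deviations of samples sharing a number correlated at 0.064, 0.335 and -0.001. Samples of unlike numbers were not compared in this way, so these values do not settle whether the samples are paired. With the replicate block the log2 fold change of *Tmeff1* stayed 3.71, and 2 members were higher and 1 lower, as without it. The dimmer probe set of a gene could not be tried, since each member has 1. Signals below the array median, among the members those of *Tmeff2*, *Fst*, *Nog*, *Chrd* and *Tgfbr3*, limit what can be seen, and they have no value in the fit of brighter rows.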
